A study of Homo sapiens with 4 samples.

Results

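Described here are 10 genes of HCT116 cells, the 4 FOS family genes (FOS, FOSB, FOSL1, FOSL2), the 3 JUN family genes (JUN, JUNB, JUND) and EGR1, IER2 and IER3. They were taken by gene name out of 58735 genes in the count tables, each name matched 1 gene, and the rule uses names, not measured values. HCT116 is an established human colon cancer line. RNA was sequenced from 2 control_sh libraries, whose cells carried a control shRNA, and 2 RBM25_sh libraries, in which an shRNA targeted RBM25, an RNA-binding protein that takes part in selecting splice sites. Cells of all 4 libraries grew in the same medium, McCoy's 5A, to which serum (10% FBS) had been added. The labels name 1 RBM25 shRNA treatment, without its sequence, a time point or a serum starvation step, and do not say that replicates were separate cultures. What the p-values measure is therefore the spread of 4 libraries, and it may be technical.

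AP-1 is a dimer of basic leucine zipper proteins. JUN proteins pair with each other or with FOS proteins, while FOS proteins need a partner outside the FOS family, such as a JUN protein. The dimers of JUN and FOS proteins bind the element TGACTCA or its longer relative TGACGTCA. Immediate-early genes such as FOS, EGR1 and IER2 are switched on by growth factors through the ERK kinases without new protein synthesis, and their messengers are short-lived. FOSL1 (the protein FRA-1) is a known late and lasting product of ERK signalling.

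Per kilobase of annotated exon sequence, JUND and JUNB supplied most of the JUN family messengers in the control libraries, and JUN the least. In the RBM25_sh libraries JUN stood higher and JUNB lower, while the ranges of JUND overlapped. EGR1, FOS, FOSB, FOSL1, IER2 and IER3 all had lower means in the RBM25_sh libraries, and FOSL2 did not. On the deposited counts none of the 10 genes passed the edgeR threshold, an adjusted p of 0.05 over 16091 genes tested, against 3.05% of all genes tested (0.653% higher and 2.4% lower). An unadjusted p under 0.05 was reached by 4 of the 10, JUN, JUNB, IER3 and FOSB, and by 21.4% of all genes. A DESeq2 Wald test called JUN, JUNB and IER3, with 6.74% of all genes.

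Sequences before the gene starts are shown first, because they hold some of the elements through which these genes are known to be switched on. JUN and FOS proteins also act on their own genes through such elements. They are RefSeq sequences on GRCh38.p14 for 8 of the 10 genes, matched by symbol, and FOSL1 and IER3 had no entry in the table. Each window ran from 250 bases before the RefSeq start to 50 after it. Both strands were searched for TGACTCA, TGACGTCA, the JUN-type element TGACATCA, the 5-letter half-site TGACG, the CArG box bound by SRF and the letters TATAAA; each TGACGTCA also holds the half-site on both strands. In the lines below the part before both the RefSeq and the GENCODE start is printed 5′ to 3′, with the half-sites, TGACGTCA and the CArG boxes in capitals.
EGR1, chr5:138465229-138465478, plus strand: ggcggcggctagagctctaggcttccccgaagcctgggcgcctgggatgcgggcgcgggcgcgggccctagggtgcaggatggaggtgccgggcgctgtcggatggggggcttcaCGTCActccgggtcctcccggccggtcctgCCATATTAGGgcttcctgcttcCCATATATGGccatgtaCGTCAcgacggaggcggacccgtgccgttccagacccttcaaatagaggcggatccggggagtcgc
JUNB, chr19:12791236-12791485, plus strand: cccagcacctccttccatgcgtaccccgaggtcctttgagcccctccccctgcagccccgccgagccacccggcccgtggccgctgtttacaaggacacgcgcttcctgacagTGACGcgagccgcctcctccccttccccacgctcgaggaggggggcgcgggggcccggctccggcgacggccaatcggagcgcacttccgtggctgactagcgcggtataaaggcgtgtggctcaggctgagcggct
JUND, chr19:18281623-18281872, minus strand: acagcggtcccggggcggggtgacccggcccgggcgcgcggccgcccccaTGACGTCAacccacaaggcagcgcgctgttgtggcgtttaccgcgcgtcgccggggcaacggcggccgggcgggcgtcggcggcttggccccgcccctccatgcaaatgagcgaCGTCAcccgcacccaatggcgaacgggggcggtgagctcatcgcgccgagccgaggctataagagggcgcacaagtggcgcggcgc

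EGR1 held 2 CArG boxes and 2 half-sites. A CArG box was found in 1.29% of 35116 RefSeq promoter windows of 300 bases, and among these 8 genes only in EGR1. Bases further upstream were not searched, so an element lying there would be missed. JUND held 1 copy of TGACGTCA, an element found in 1.85% of the windows, while JUNB held a single half-site. The half-site itself was in all 8 genes and in 24.6% of all windows. The windows of the 8 genes had a GC content from 62% (JUN) to 77% (JUND), and the windows compared with were not matched for GC. TATAAA was in FOS, FOSB and JUNB and in 11.5% of all windows.

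For JUN, FOS and FOSB 30 bases around 1 match are enough to show the element, and the match is in capitals. The JUN window holds TGACATCA, at bases −67 to −60 from the RefSeq start, which occurred in 2.61% of all windows. GENCODE starts JUN further upstream, so this window lies within its annotated first exon.
JUN, chr1:58784096-58784125, minus strand: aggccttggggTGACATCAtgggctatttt
FOS, chr14:75278752-75278781, plus strand: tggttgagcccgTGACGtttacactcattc
FOSB, chr19:45467924-45467953, plus strand: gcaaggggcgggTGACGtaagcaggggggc
FOSL2 held TGACTCA, found in 4.95% of all windows, at bases 5 to 11 after its RefSeq start. These matches describe the letters of the windows, and binding was not measured.

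The knockdown was seen in both RBM25_sh libraries. RBM25 stood at 155 and 115 CPM (counts scaled to a common library size by TMM) in control_sh replicates 1 and 2 and at 44.0 and 35.7 CPM in RBM25_sh replicates 1 and 2, a log2 fold change of −1.76 ± 0.30 (SE, edgeR adjusted p = 0.0195). The RBM25 call was lost without RBM25_sh replicate 1 (edgeR adjusted p = 0.119) or 2 (0.202) and with limma-trend on log2(FPKM + 1) (0.0572). The libraries held 15528274 to 16982663 counts. Of 10 colon epithelial markers 8 had at least 1 CPM in every library and CDX1 had no count. Their summed level was 3594 to 4557 CPM in the controls and 4493 to 5628 CPM in the RBM25_sh libraries. The 4 endothelial markers summed to at most 2.59 CPM, with CDH5 at 0, and the 7 immune markers to at most 1.53 CPM, with CD3E at 0. The 7 fibroblast and smooth muscle markers summed to 42.9 and 66.4 CPM in the controls and 45.7 and 56.1 CPM in the RBM25_sh libraries, with COL1A2 and LUM at 0.

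A difference between replicates runs through all of these genes. In every library pair of a group, replicate 2 had the higher CPM for 10 of the 10 genes, which 38.6% of all genes tested did. Over 10480 genes of the same libraries, the step from replicate 1 to replicate 2 followed GC content (Spearman's rho 0.824 for control_sh, 0.836 for RBM25_sh, as a description), and the genes described here have a GC content from 52.6% (FOS) to 69.7% (JUND) in their longest GENCODE transcript. Between the groups, the log2 fold change on the deposited counts ran lower with higher GC content (Spearman's rho −0.304 over the 10480 genes, as a description). A second fit took out the GC trend library by library, and is called the GC correction below. It called 28.1% of all genes, 12.9% higher and 15.2% lower, and 6 of the 10, JUN higher and JUNB, FOSB, FOSL1, IER2 and IER3 lower. All counts are totals over the transcripts of a gene in bulk RNA, so fewer cells making a transcript and less RNA per cell cannot be told apart.

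**Figure D1:**
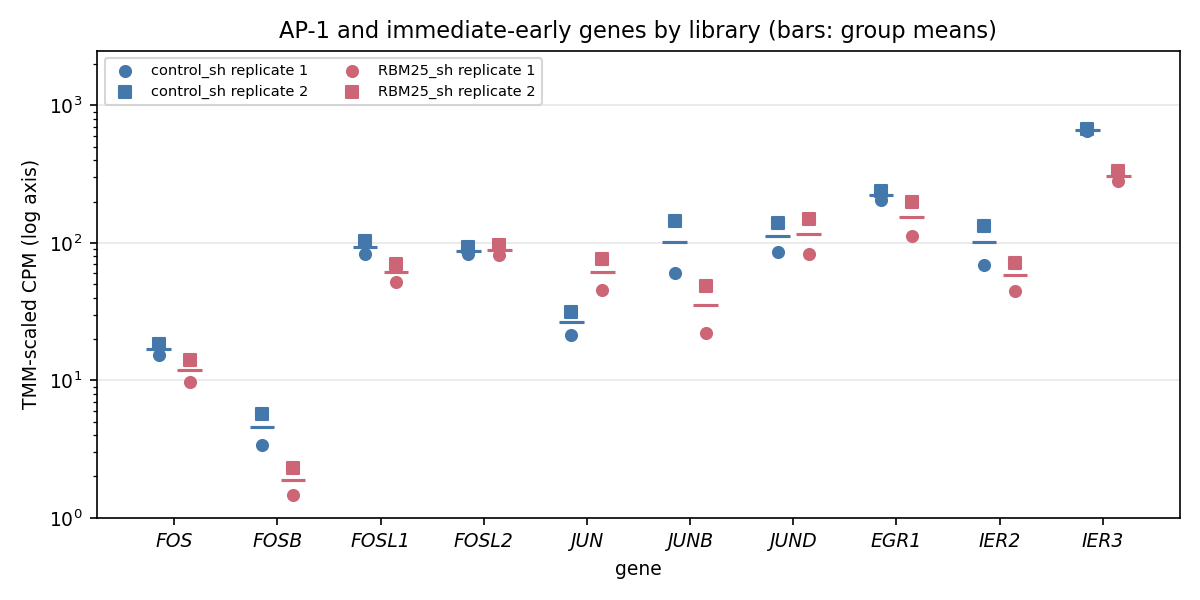
TMM-scaled CPM (log axis) of the 10 genes in each library, circles for replicate 1 and squares for replicate 2, with short bars at the group means (n = 2). JUN lies higher in both RBM25_sh libraries than in both controls, JUNB and IER3 lie lower, and replicate 2 lies above replicate 1 throughout.

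JUN encodes c-Jun, the JUN protein that JNK phosphorylates and that can raise its own gene's transcription. JUN (ENSG00000177606, GRCh38 chromosome 1, 58780788 to 58784327, minus strand, a gene of 1 exon) was counted 338 and 565 times in the controls, against 682 and 1201 times after RBM25 shRNA. These are 21.4 and 31.5 CPM in the controls and 45.7 and 76.5 CPM in the RBM25_sh libraries. The groups did not overlap, and both RBM25_sh libraries were above both controls. The mean went from 26.4 ± 7.17 to 61.1 ± 21.8 CPM (SD, n = 2), a 2.31-fold difference (log2 1.21 ± 0.34, edgeR adjusted p = 0.0892). Without 1 library the uncorrected JUN difference was 0.83 to 1.55, and it was called only without control_sh replicate 2 (1.51, edgeR adjusted p = 0.00317). After the GC correction JUN rose by 1.37 ± 0.17 (edgeR adjusted p = 0.0010046), 2.58-fold, and the 4 corrected fits without 1 library gave 1.16 to 1.57.

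JUNB encodes a JUN protein that activates more weakly than c-Jun and can oppose it in dimers. JUNB (ENSG00000171223, chromosome 19, 12791496 to 12793315, plus strand, 1 exon) had 962 and 2578 counts in the controls and 332 and 761 in the RBM25_sh libraries, or 60.8 and 144 CPM against 22.2 and 48.5 CPM. The groups did not overlap, although replicate 2 was 2.36 times replicate 1 in the controls and 2.18 times in the RBM25_sh libraries. The mean went from 102 ± 58.7 to 35.4 ± 18.6 CPM (SD, n = 2), 2.89-fold lower (log2 −1.53 ± 0.47, edgeR adjusted p = 0.105). Without 1 library the uncorrected JUNB difference ran from −2.16 (without RBM25_sh replicate 2) to −0.78 (without control_sh replicate 2). It was called without control_sh replicate 1 (−2.01, edgeR adjusted p = 3.6e-07) and without RBM25_sh replicate 2 (edgeR adjusted p = 0.0399). With the GC correction the 4 values were 74.6 and 101 CPM against 30.5 and 40.6 CPM, so that the replicates lay closer together. JUNB then fell by 1.30 ± 0.19 (edgeR adjusted p = 0.0019), and the 4 corrected fits without 1 library gave −1.51 to −1.07. JUNB lies within HOOK2, a gene of the opposite strand with 749 and 1647 counts in the controls and 733 and 867 in the RBM25_sh libraries, and without stated stranded counting reads could be counted for either gene.

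JUND encodes the JUN protein of resting and growing cells alike, whose gene depends less on stimulation. JUND (ENSG00000130522, chromosome 19, 18279760 to 18281622, minus strand) stood at 86.4 and 139 CPM in the controls and at 83.2 and 149 CPM in the RBM25_sh libraries. The groups overlapped fully, and a log2 difference of 0.048 ± 0.36 did not pass the test (edgeR adjusted p = 0.957). It was −0.069 when scaled by library totals, and from −0.40 to 0.43 without 1 library. The GC-corrected difference of 0.23 ± 0.14 did not pass either (edgeR adjusted p = 0.252), but without control_sh replicate 1 the corrected fit called JUND higher by 0.40 (edgeR adjusted p = 0.00715).

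Seen within each library, the balance of the JUN family differed between the groups. FPKM are the deposited values per kilobase of all exon sequence annotated for a gene. JUN made up 7.03% and 5.49% of the family's summed FPKM in the controls and 18.5% and 16.8% in the RBM25_sh libraries. JUNB made up 38.9% and 48.7% in the controls and 17.5% and 20.8% in the RBM25_sh libraries. JUND had 54.0% and 45.8% against 64.0% and 62.4%. The ratio of JUN to JUNB in FPKM was 0.181 and 0.113 in the controls and 1.06 and 0.811 in the RBM25_sh libraries, and such a ratio does not depend on how libraries are scaled. Computed from GC-corrected CPM per kilobase it was 0.160 and 0.131 against 0.913 and 0.910. These shares and ratios were looked at after the single genes' values were seen, and are a description with no test.

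**Figure D2:**
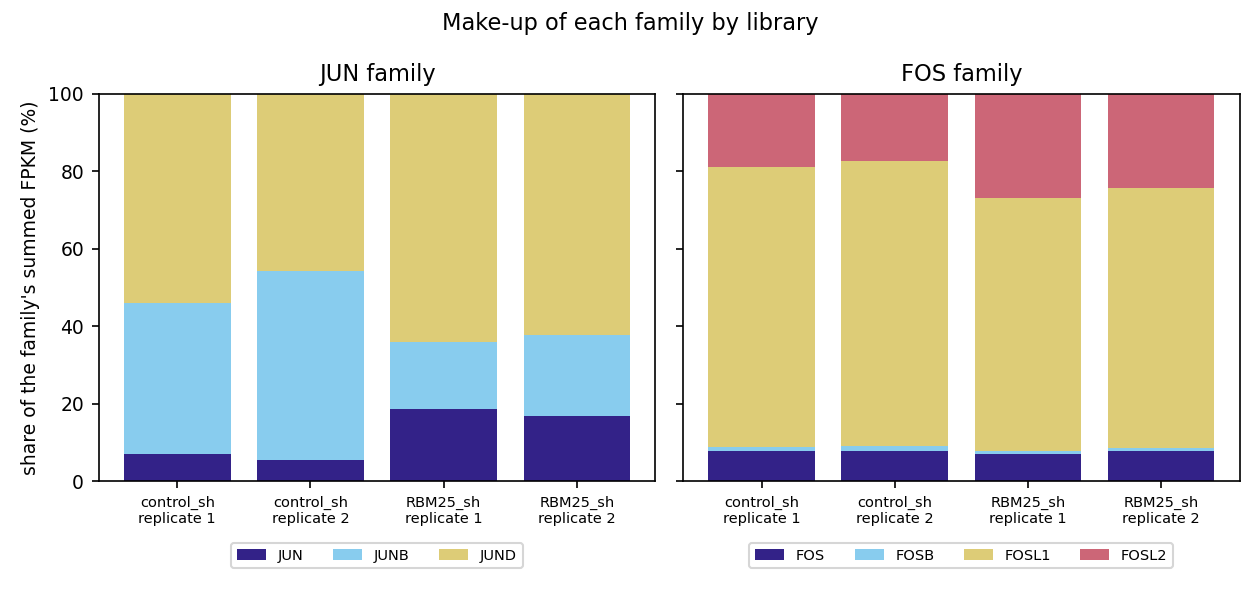
Share of each gene in the summed FPKM of the JUN family (left) and the FOS family (right), in percent, 1 stacked bar per library. JUN takes 5.49% to 7.03% of its family in the controls and 16.8% to 18.5% in the RBM25_sh libraries, and FOSL1 is the largest part of the FOS family in all 4 libraries.

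FOSL1 was the most abundant FOS family messenger per kilobase in every library. FOSL1 (ENSG00000175592, chromosome 11, 65892049 to 65900573, minus strand) stood at 83.0 and 103 CPM in the controls and at 51.9 and 70.2 CPM in the RBM25_sh libraries. Both RBM25_sh libraries were below both controls. The log2 difference was −0.61 ± 0.29 (edgeR adjusted p = 0.261), and with the GC correction FOSL1 fell by 0.41 ± 0.14 (edgeR adjusted p = 0.0491). That call was lost without control_sh replicate 1 (edgeR adjusted p = 0.0791) and without RBM25_sh replicates 1 (0.259) and 2 (0.313).

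FOSL2 encodes FRA-2, the other FOS protein without the strong activation domain of c-Fos. FOSL2 (ENSG00000075426, chromosome 2, 28392448 to 28417312, plus strand) measured 82.5 and 93.0 CPM in the controls and at 81.6 and 97.4 CPM in the RBM25_sh libraries. The ranges overlapped, and the log2 difference was 0.028 ± 0.27 (edgeR adjusted p = 0.968), or 0.14 ± 0.12 after the GC correction (edgeR adjusted p = 0.422). It was −0.084 when scaled by library totals. The ratio of FOSL1 to FOSL2 in FPKM was 3.81 and 4.20 in the controls and 2.41 and 2.73 in the RBM25_sh libraries, a description with no test.

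FOS and FOSB, the 2 FOS family genes most tied to acute stimulation, were the least abundant of the 10 genes in FPKM in every library. The length used takes in the exons of all annotated transcripts, 3238 bases for FOS, so an order between genes depends on it. FOS (ENSG00000170345, chromosome 14, 75278774 to 75282230, plus strand) measured 15.3 and 18.5 CPM in the controls and at 9.72 and 14.1 CPM in the RBM25_sh libraries. The groups did not overlap, but the nearest libraries were close, and the log2 difference of −0.50 ± 0.32 did not pass (edgeR adjusted p = 0.407; −0.41 ± 0.19 and 0.147 with the GC correction). FOSB (ENSG00000125740, chromosome 19, 45467995 to 45475179, plus strand) had only 54 and 102 counts in the controls and 22 and 36 in the RBM25_sh libraries. These are 3.42 and 5.69 CPM against 1.47 and 2.29 CPM, with no overlap. The log2 difference of FOSB was −1.27 ± 0.45 (edgeR adjusted p = 0.149; −1.58 and 0.0163 without control_sh replicate 1), and with the GC correction FOSB fell by 1.07 ± 0.33 (edgeR adjusted p = 0.0375). That call was lost without control_sh replicate 2 (edgeR adjusted p = 0.110) and without RBM25_sh replicates 1 (0.166) and 2 (0.101). FOSB lies within ERCC1 of the opposite strand, which had 912 and 1574 counts in the controls and 583 and 815 in the RBM25_sh libraries, so reads of either gene could enter its count.

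IER3 encodes a small protein that ERK phosphorylates and that affects survival and ERK signalling. It had by far the highest level of the 10 genes per kilobase, at 463 and 474 FPKM in the controls and 211 and 237 FPKM in the RBM25_sh libraries. In CPM, IER3 (ENSG00000137331, chromosome 6, 30743199 to 30744554, minus strand) stood at 652 and 670.1 in the controls and at 283 and 334 in the RBM25_sh libraries. The controls differed little from each other in these values (after the GC correction they stood at 725 and 522 CPM, against 349 and 308 CPM), and both RBM25_sh libraries were near a 2.14-fold lower level. The log2 difference of −1.10 ± 0.26 lay just outside the threshold (edgeR adjusted p = 0.0546). It was called with library totals (edgeR adjusted p = 0.0434) and with a stricter filter (0.0496). After the GC correction IER3 fell by 0.93 ± 0.18 (edgeR adjusted p = 0.00729), a call that was lost without RBM25_sh replicate 1 (0.0548) or 2 (0.106).

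EGR1 encodes a zinc finger factor whose promoter is a classical target of SRF and ERK. EGR1 (ENSG00000120738, chromosome 5, 138465490 to 138469315, plus strand), whose 2 CArG boxes are printed above, stood at 205 and 239.5 CPM in the controls and at 112 and 199 CPM in the RBM25_sh libraries. The groups did not overlap, yet RBM25_sh replicate 2 lay close to control_sh replicate 1. The log2 difference of −0.52 ± 0.32 did not pass (edgeR adjusted p = 0.398; −0.40 ± 0.18 and 0.129 with the GC correction). Without RBM25_sh replicate 1 it was −0.14, and the corrected fit without control_sh replicate 2 called EGR1 lower (−0.48, edgeR adjusted p = 0.00234). IER2, a nuclear protein gene of the same early wave (ENSG00000160888, chromosome 19, 13150415 to 13154908, plus strand), measured 69.3 and 133 CPM in the controls and at 44.4 and 71.6 CPM in the RBM25_sh libraries. RBM25_sh replicate 2 was above control_sh replicate 1, so the groups overlapped. IER2 differed by −0.80 ± 0.37 (edgeR adjusted p = 0.251). Without control_sh replicate 2 the difference was −0.26, and without control_sh replicate 1 it was −1.19 and called (edgeR adjusted p = 0.00715). With the GC correction IER2 fell by 0.56 ± 0.14 (edgeR adjusted p = 0.0170), a call that was lost without RBM25_sh replicate 1 (0.191) or 2 (0.0956).

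**Figure D3:**
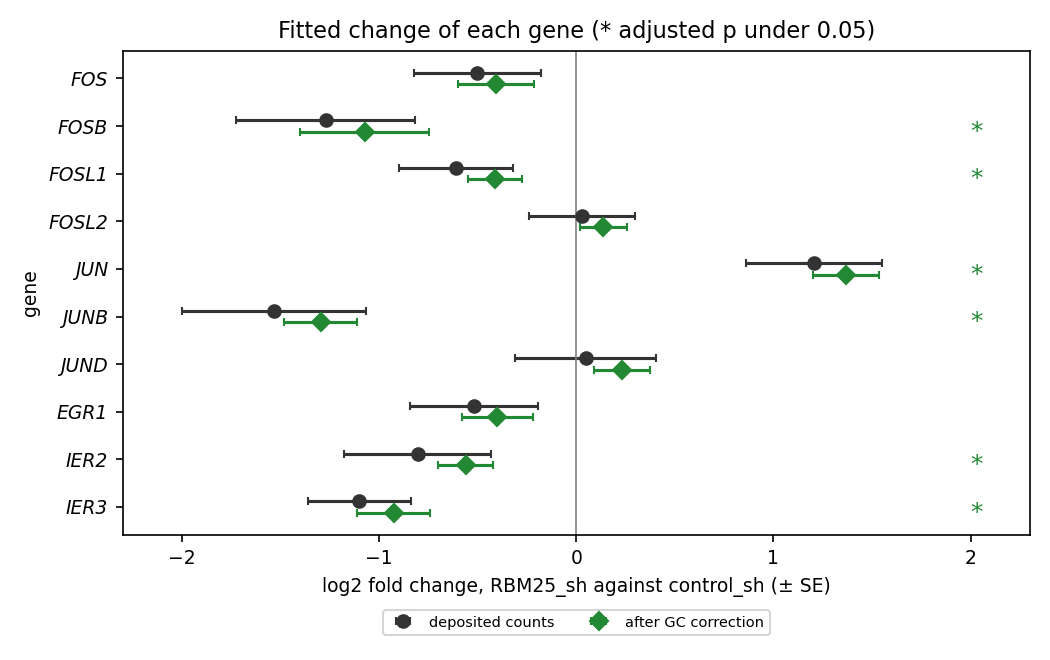
Log2 fold change of RBM25_sh against control_sh for each gene, ± SE, from the deposited counts (circles) and after the GC correction (diamonds); a star marks an adjusted p under 0.05 after the correction, which JUN, JUNB, FOSB, FOSL1, IER2 and IER3 reached. JUN is the 1 gene of these 6 on the positive side.

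Of the 10 genes, 7 had CPM groups that did not overlap, 1 higher and 6 lower, where 51.8% of all genes tested did not overlap, 23.9% higher and 27.9% lower. Their median log2 fold change was −0.56 against −0.04 over all genes tested, and −0.41 against −0.02 after the GC correction. The order of levels in FPKM held its 2 ends in all 4 libraries, with IER3 first, then FOS and FOSB last. In the controls the range of JUNB (32.2 and 75.8 FPKM) took in those of EGR1 (62.9 and 73.2), JUND (44.6 and 71.3) and FOSL1 (42.3 and 52.4). EGR1 and FOSL1 did not overlap each other, while IER2 (21.7 and 41.6 FPKM) overlapped JUNB alone. FOSL2 (11.1 and 12.5 FPKM) and JUN (5.81 and 8.54) came after them without overlap. In the RBM25_sh libraries JUN, at 13.0 and 20.8 FPKM, lay inside the range of JUNB (12.4 and 25.6), overlapped IER2 (14.6 and 22.4), and overlapped FOSL2 (11.5 and 13.1) by a small margin. The gene models differ: in GENCODE 29 JUN, JUNB, JUND and IER3 form a single block of exon sequence, EGR1 and IER2 have 2 blocks, and FOSL2 has 7.

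By Euclidean distance between centred log2 CPM values over the 4 libraries, the genes most like IER3 among 10077 protein-coding genes were NR2F1, DUSP5 and FBLN1. Their distances were 0.029, 0.080 and 0.115, where the median gene lay at 1.26. DUSP5, a nuclear phosphatase of ERK that is itself induced by ERK, stood at 204 and 225 CPM in the controls and at 89.1 and 109 CPM in the RBM25_sh libraries. The genes most like JUN were the folate carrier gene SLC19A1, the helicase gene DHX34 and B3GALT6, at 0.060, 0.104 and 0.171. The genes most like JUNB were TCEA2, the galactokinase gene GALK1 and NAB2, a corepressor of EGR1, at 0.133, 0.170 and 0.234. With 4 libraries many genes share such a profile, replicate difference included, so the likeness is a description.

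Upstream of these genes, the receptors and kinases that lead to ERK and JNK showed no edgeR call on the deposited counts. The counts of the lists below are to be read against all genes tested, of which 21.4% had an unadjusted p under 0.05, and the GC correction called 12.9% higher and 15.2% lower. Of 17 genes from growth factor receptors to ERK none was called by edgeR, 4 had an unadjusted p under 0.05, and the median was 0.058. The DESeq2 Wald test called NRAS higher and ERBB3 lower. The receptor gene ERBB3 stood at 57.8 and 65.4 CPM in the controls and at 27.6 and 32.0 CPM in the RBM25_sh libraries (−1.05 ± 0.28, edgeR adjusted p = 0.0728). NRAS stood at 153 and 85.6 CPM against 267 and 225 CPM (1.05 ± 0.33, edgeR adjusted p = 0.115). After the GC correction 3 of the 17 were called higher and 4 lower, ERBB3, the adaptor gene SHC1 and MAPK3, which encodes ERK1, among the lower and NRAS among the higher.

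The 11 genes of the JNK relay, whose last kinases phosphorylate c-Jun, had a median of −0.04 with none called by edgeR or DESeq2 and 3 at an unadjusted p under 0.05. MAP2K4, a kinase that activates JNK, stood at 72.9 and 47.8 CPM in the controls and at 121 and 104 CPM in the RBM25_sh libraries (0.90 ± 0.30, edgeR adjusted p = 0.132). MAP3K1, which acts above it, differed by 0.83 ± 0.31 (edgeR adjusted p = 0.162), and with the GC correction both were called higher, by 0.79 ± 0.13 and 0.73 ± 0.14. The corrected fit called 2 of the 11 higher and 2 lower. The lower ones were MAP3K5, a stress-activated kinase gene at 35.8 and 27.95 CPM in the controls and 22.9 and 21.7 CPM in the RBM25_sh libraries (−0.55 ± 0.15, edgeR adjusted p = 0.0254), and MAPK10, at 1.14 CPM or less in every library. Of 11 SRF and CREB type factors that act on immediate-early promoters none was called by edgeR or DESeq2. Their median was 0.097, with 7 above 0 and 4 below. The GC correction called 1 higher, MRTFB (0.42 ± 0.13, edgeR adjusted p = 0.0460), and 2 lower. On the deposited counts 1 had an unadjusted p under 0.05, ELK4, a partner of SRF. ELK4 stood at 169.9 and 107 CPM in the controls and at 71.2 and 66.8 CPM in the RBM25_sh libraries (2.01-fold lower, edgeR adjusted p = 0.104; −1.17 ± 0.13 and 6.3e-04 with the GC correction). SRF itself differed by −0.48 ± 0.32 and did not pass either fit (edgeR adjusted p = 0.426 and 0.147).

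Among 11 tested bZIP partners, which form dimers with JUN or FOS proteins, none was called by edgeR or DESeq2 (median −0.31). An unadjusted p under 0.05 was reached by 3, MAFF and BATF2 lower and CREB5 higher (1.05 ± 0.45, edgeR adjusted p = 0.218). The small MAF genes MAFF and MAFG, whose proteins lack an activation domain, were called lower after the GC correction, by −0.87 ± 0.15 and −0.44 ± 0.12. That fit called 1 of the 11 higher and 3 lower. ATF3, which is often induced with JUN, was named after its values were seen: it stood at 47.7 and 50.7 CPM in the controls and at 44.8 and 48.0 CPM in the RBM25_sh libraries.

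Other immediate-early genes went both ways. Of 24 tested, 1 was called higher and 1 lower, 10 had an unadjusted p under 0.05, and the median was −0.17. PLK2, a polo-like kinase gene of the early wave, rose from 74.7 and 63.4 CPM to 258 and 239 CPM (1.85 ± 0.27, edgeR adjusted p = 0.0145; 0.0652 without RBM25_sh replicate 1). GEM, a small GTPase gene, fell from 28.8 and 23.8 CPM to 10.4 and 10.9 CPM (−1.31 ± 0.30, edgeR adjusted p = 0.0486). The GEM call was lost with DESeq2 size factors (0.0539), with limma-voom (0.0564), on FPKM (0.0800 and 0.0735) and without RBM25_sh replicates 1 (0.454) and 2 (0.308). RHOB, a GTPase gene, stood at 108 and 137 CPM against 213 and 305 CPM, and NR4A1, a nuclear receptor gene, at 19.3 and 26.5 CPM against 7.84 and 11.3 CPM, neither past the threshold (edgeR adjusted p = 0.0812 and 0.0728). The GC correction called 4 of the 24 higher and 6 lower, and DESeq2 called 4 higher and 2 lower.

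Of 21 ERK feedback genes 1 was called lower and none higher (median −0.14), and 3 had an unadjusted p under 0.05. The list had 10 genes above 0 and 11 below. The GC correction called 1 higher, SPRED1 (0.46 ± 0.14, edgeR adjusted p = 0.0357), and 4 lower. ERRFI1, an inhibitor of the EGF receptor, fell from 1597 and 1361 CPM to 724 and 614 CPM (−1.14 ± 0.26, edgeR adjusted p = 0.0492). Its call was lost with DESeq2 size factors (0.0614), with limma-voom (0.0510), on FPKM (0.0966 and 0.0945) and without RBM25_sh replicates 1 (0.276) and 2 (0.409). DUSP5, second nearest to IER3 in profile, differed by −1.12 ± 0.27 (edgeR adjusted p = 0.0584) and NAB2 by −1.41 ± 0.42 (edgeR adjusted p = 0.1004), both called lower by DESeq2. NAB2 overlaps STAT6 on the opposite strand. DUSP6, named after its values were seen as a common readout of ERK activity, stood at 237 and 216 CPM in the controls and at 192 and 197 CPM in the RBM25_sh libraries (edgeR adjusted p = 0.680).

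Decay and stability factors that bind the AU-rich elements of such messengers gave no edgeR call among 8 tested. Of these 1 had an unadjusted p under 0.05, and the same 1 was called lower by DESeq2. This was ZFP36, the decay factor tristetraprolin, itself an early gene. ZFP36 stood at 83.8 and 113 CPM in the controls and at 28.2 and 50.2 CPM in the RBM25_sh libraries (−1.33 ± 0.34, edgeR adjusted p = 0.0671; −1.17 ± 0.16 and 0.00169 with the GC correction). Its relative ZFP36L1 stood at 327 and 297 CPM against 395 and 453 CPM (0.44 ± 0.26, edgeR adjusted p = 0.366), and the GC correction called it higher (0.46 ± 0.15, edgeR adjusted p = 0.0425).

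Known targets of AP-1 had a median of −0.59 over the 17 that passed the filter of 25 in the list. With the GC correction their median was −0.44, against −0.02 over all genes tested. On the deposited counts 13 of the 17 lay below 0, as did 8444 of all 16091 genes tested. By the test, 1 of the 17 was called higher and 1 lower, and 9 had an unadjusted p under 0.05. AREG, which encodes the EGF receptor ligand amphiregulin, fell from 710.0 and 732 CPM to 186 and 205 CPM, 3.68-fold lower (−1.88 ± 0.26, edgeR adjusted p = 0.0114; 0.0941 and 0.0554 without RBM25_sh replicates 1 and 2). The related ligand gene EREG stood at 1955 and 1072 CPM against 615 and 526 CPM and lay just outside the threshold (−1.41 ± 0.33, edgeR adjusted p = 0.0510). PLAU, the urokinase gene, stood at 79.8 and 91.3 CPM against 39.9 and 41.7 CPM (−1.07 ± 0.27, edgeR adjusted p = 0.0634). Going the other way, the cyclin D1 gene CCND1 rose 2.73-fold (1.45 ± 0.27, edgeR adjusted p = 0.0265; 0.0674 and 0.139 without RBM25_sh replicates 1 and 2; 0.0529 on log2(FPKM + 1)). CCND1 overlaps LTO1 on the opposite strand. The GC correction called 2 of the 17 higher and 8 lower, and DESeq2 called 1 higher and 4 lower. EREG and PLAU were among the lower in both.

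**Figure D4:**
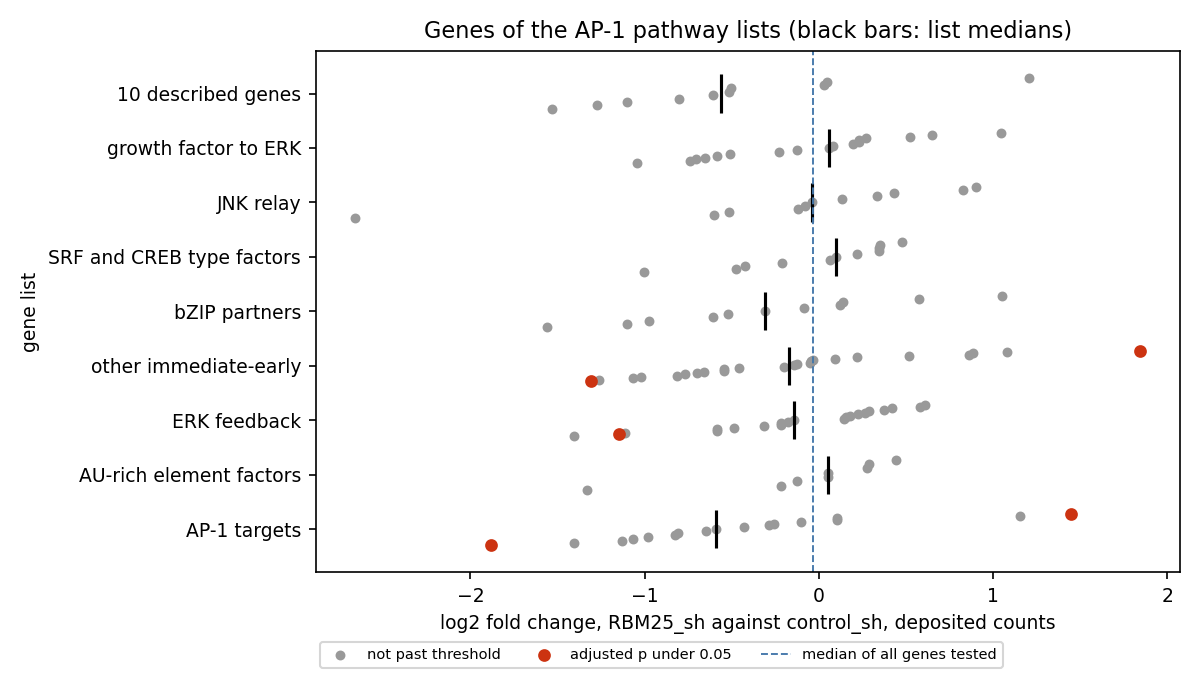
Log2 fold change of RBM25_sh against control_sh on the deposited counts for each tested gene of the 8 pathway lists and of the 10 genes (grey, not past the threshold; red, adjusted p under 0.05), with list medians as black bars and the median of all genes tested as a dashed line. The medians of the 10 genes (−0.56) and of the AP-1 targets (−0.59) lie furthest below the dashed line at −0.04, and 5 genes are red.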

How the data were processed

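Whole-number counts per gene and FPKM per gene were deposited for each of 4 HCT116 libraries. Named, per the submitters' processing notes, are Cufflinks and Cuffdiff (both 2.1.1), TopHat2 (2.0.9) and Bowtie2 (2.0.6). What each did, the counting tool and its strand setting are not given in the sources used. Dividing the deposited counts by gene length and by 1 factor per library gave the deposited FPKM, within 0.001 of the value, for all genes with at least 20 counts, so both carry the same data. The FPKM were used for levels per kilobase and for alternatives. All 58735 gene positions and lengths equal GENCODE 29 on GRCh38, the length being that of the joined exons of all transcripts of a gene.

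Counts were tested in edgeR 4.0.16 (R 4.3.3) with filterByExpr, TMM and a two-sided quasi-likelihood F test with group as the only term, 2 residual degrees of freedom and Benjamini-Hochberg adjustment over 16091 genes. All 10 genes passed the filter. SEs were taken from the log2 fold change and F. The GC correction enters each library's lowess trend (span 0.3) of log2 CPM deviations on GC content as offsets. It therefore also acts on the GC trend between the groups (Spearman's rho of log2 fold change with GC content −0.304). Fits were run on simulated counts with and without a GC trend between replicates. No GC trend between the groups was simulated. Limma 3.58.1 and DESeq2 1.42.0 served for alternatives, matplotlib 3.10.9 for figures. The genes, lists and alternatives were chosen with earlier results of these data known, and the corrected fits without 1 library after seeing the data. By rule the text names the 10 genes, RBM25, each list's called genes with others of smallest p up to 4 (a part is named), and the 3 genes nearest in profile to each of the 3 genes with the smallest p.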

Additional observations from a re-analysis of the deposited data

How the results depend on the processing

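On the deposited counts, the number of the 10 genes called (0) was also 0 with DESeq2 size factors, limma-voom and limma-trend on FPKM with either pseudocount (1 and 0.1). It was 1 with library totals or the stricter filter of 1 CPM, 3 without a filter, 3 with the DESeq2 Wald test, 6 with the GC correction, and 0 to 4 without 1 library (0 without RBM25_sh replicate 1, 4 without control_sh replicate 1). The fits tested 16091 genes, except 14538 with the stricter filter, 30897 without a filter and 16792 to 17310 without 1 library. Of all genes, 491 were called, 105 higher and 386 lower. There were 534 calls (3.32%) with library totals, 590 (4.06%) with the stricter filter, 466 with DESeq2 size factors and 374 with limma-voom. The number was 1438 without a filter, 1085 with the Wald test, 215 and 268 on FPKM with pseudocounts of 1 and 0.1, 4522 with the GC correction (2073 higher and 2449 lower), and 204 to 2389 without 1 library. The corrected fits without 1 library called 6298, 5760, 1960 and 1995 genes (leaving out control_sh 1 and 2, then RBM25_sh 1 and 2) and 2 to 6 of the 10. Library totals moved the median of all genes to −0.15, so differences there lie lower throughout. FOSL2 and JUND, neither called on the deposited counts, changed sign with library totals (−0.084 and −0.069) and without 1 library (FOSL2 from −0.067 to 0.17, JUND from −0.40 to 0.43). HNRNPD, an AU-rich element factor at 0.28 and not called, was −0.037 with the GC correction and not called. In the corrected fits without 1 library it was called in opposite directions, −0.47 without control_sh replicate 1 and 0.56 without control_sh replicate 2, and was −0.23 without RBM25_sh replicate 2. The cause of these changes was not tested. Leaving out 1 library sets 1 library against 2.

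Same-numbered libraries share only a number in the titles; their deviations from the group means correlated at 0.47 across genes. With the replicate block 5722 genes and 8 of the 10 were called, and with the GC correction and the replicate block 6257 genes and 7 of the 10, JUN higher in both.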
